A study of Mus musculus with 16 samples.

Results

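The growth hormone (GH) and IGF axis was followed through 10 genes, chosen by name from the 57010 genes of the deposited liver table: the receptor Ghr, its kinase Jak2, the transcription factors Stat5a and Stat5b, the feedback genes Socs2 and Cish, the hormone Igf1, and the IGF partners Igfals, Igfbp2 and Igfbp4. Liver RNA-seq was available for 16 male wild-type C57BL/6J mice, with 4 mice in each of 4 groups. Control mice (numbers 27 to 30) carried neither treatment, and whether they received a vehicle injection or a matched diet was not given in the sources used here. Cd mice (1, 2, 5 and 6) were injected intraperitoneally with CdCl2 at 1.25 mg/kg each day for 7 days, Se mice (39, 40, 41 and 44) ate selenomethionine (SeMet) at 2 ppm for 3 months, and Cd+Se mice (13 to 16) had the SeMet diet and received CdCl2 during its last 7 days. The age given was 8 to 12 weeks, read here as that before the 3 months of feeding, and the age at tissue collection was not given in the sources used here. The values were TPM (transcript levels scaled by length and to a fixed library total), which keep no sequencing depth, so the depth was unknown and precision rested on 4 mice per group.

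GH from the pituitary binds GHR on hepatocytes, and the JAK2 bound to that receptor phosphorylates STAT5A and STAT5B, which then enter the nucleus and activate genes such as Igf1, Igfals, Socs2 and Cish. The liver is the main source of circulating IGF-1, most of which travels in a complex with IGFBP3 and the acid-labile subunit encoded by Igfals, while other IGF-binding proteins such as IGFBP2 and IGFBP4 carry it in smaller complexes. SOCS2 and CIS, the product of Cish, act back on the receptor complex and dampen its signal. In rodents the pulses of GH in males also set the sex-biased expression of many liver genes.

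STAT5 binds sites with the core TTCNNNGAA, so this core was searched in the 300-base RefSeq windows around each transcription start (250 bases before it and 50 from it, build GRCm38.p6). Of 32851 such windows, 8.30% held the core and 0.457% held it more than once. A window was found for 9 of the 10 genes (15 windows, as some genes have several starts), and Cish and Igfals held the core. The core reads the same on both strands. The matches are shown because these genes are described as STAT5 targets in liver, with the core in capitals and 30 bases of the plus strand each.
Cish, chr9:107296654-107296683: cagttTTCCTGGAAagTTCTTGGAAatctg
Igfals, first site, chr17:24877598-24877627: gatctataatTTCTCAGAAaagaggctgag
Igfals, second site, chr17:24878163-24878192: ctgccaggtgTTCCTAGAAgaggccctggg
The Cish matches began at bases 1 and 12 from the RefSeq start, inside an exon of the GENCODE M21 annotation. The Igfals matches began 236 and 58 bases before different RefSeq starts of that gene, both in GENCODE introns. A metal response element core (TGCACNC or TGCGCNC, either strand) was searched as well because Cd acts on metallothionein genes through such elements. It occurred in 25.7% of all windows, and 1.97% held it 3 times or more, among them those of Mt2 (4 times) and Mt1 (3 times). Of the 10 genes, it occurred 4 times in 1 of the Ghr windows, 2 times in 1 of the Stat5b windows, and once each in a window of Igfals, Igfbp2 and Igfbp4. The Igfbp4 match was on the minus strand and began 231 bases before the start. The plus strand around it is printed because Igfbp4 had the largest difference of the 10 genes among those called.
Igfbp4, chr11:99041002-99041031: agaggctctccGCGCGCAggccaccgcttc
The windows of Igf1, Cish, Stat5a and Jak2 held no such core. A match is a description of these letters, not a binding site.

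The genes lie on 7 chromosomes in GENCODE M21 (GRCm38), Igf1 at chr10:87858265-87937042, Ghr at chr15:3317760-3583492 and Igfbp4 at chr11:99041244-99054392. Stat5a (chr11:100859351-100885169) and Stat5b (chr11:100780731-100850724) are neighbours 8626 bases apart. Both are close paralogs, so their TPM depend on how the quantification assigned reads from shared sequence. In the KEGG column of the deposited table, 7 of the 10 genes carried the growth hormone synthesis pathway (Ghr, Jak2, Stat5a, Stat5b, Socs2, Igf1 and Igfals).

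The labels were checked with Mt1 and Mt2, which encode Cd-binding metallothioneins. Mt1 was at least 3178 TPM in every Cd and Cd+Se mouse and at most 431 TPM in every mouse without Cd, and Mt2 was likewise at least 2433 and at most 306 TPM. TPM differed in scale between groups. The median log2 fold change over the 11766 genes tested was -0.17 in Cd mice relative to control mice and 0.17 in Cd+Se mice relative to Cd mice, and the changes of the 10 genes are read beside those medians. Of the genes that differed between Cd and control, 685 were higher and 2934 lower with TPM as deposited, 1710 and 2276 after quantile normalization, and 2260 and 1804 after median centring of the libraries. For Cd+Se against Cd the same counts were 1600 and 276, 1170 and 908, and 937 and 1272. The count for Cd+Se against Cd depended on the settings and on single mice, as its 1876 genes became 66 with only the groups compared, 1131 without a filter, 712 without Cd+Se mouse 14 and 767 without Cd mouse 5. Markers of liver cell types moved with the treatment. The 7 hepatocyte markers looked up were detected in every group, and their summed TPM had a median of 74192 in control, 56957 in Cd, 70658 in Se and 68410 in Cd+Se mice, the lowest mouse being Cd mouse 5 at 40674. The highest was Se mouse 40 at 113825. Most of each sum was Alb, at 41798 to 61475 TPM in control and 22135 to 41897 TPM in Cd mice. The others did not move alike. Cps1, Cyp2e1 and Serpina1a were lower in each Cd mouse than in each control mouse. Apoa1 (4974 to 7138 TPM in control and 5897 to 12210 TPM in Cd mice), Ttr and Asgr1 overlapped and reached higher in Cd mice. The summed TPM of 6 Kupffer cell markers was 105 to 129 in control mice, 35.0 to 54.4 in Cd mice, 57.9 to 142 in Se mice and 32.1 to 65.6 in Cd+Se mice, and all 6 fell in Cd against control. The summed TPM of 6 monocyte and neutrophil markers was 53.2 to 66.7 in control mice, 70.7 to 90.6 in Cd mice, 44.3 to 64.1 in Se mice and 109 to 186 in Cd+Se mice, and 4 of the 5 tested rose in Cd against control. The summed TPM of 7 sinusoidal endothelial markers was 96.9 to 112 in control mice, 65.5 to 89.5 in Cd mice, 65.0 to 101 in Se mice and 56.5 to 129 in Cd+Se mice, and 2 of the 7 fell in Cd against control. No marker was at 0 throughout a group. The part of these cells in the values below was not tested, and in whole liver fewer cells of a type and less RNA per cell cannot be told apart.

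Averaged over the 16 livers, the level of the 10 genes spanned 485 TPM for Igfbp4 to 2.53 TPM for Stat5a. Igf1 followed at 302 TPM, Igfbp2 at 246 TPM and Ghr at 217 TPM, and these 4 genes ranked between 213 and 439 of all genes in the table. Igfals, at 28.2 TPM, stood apart from them. Socs2 averaged 11.7 TPM, Stat5b 8.55 TPM, Cish 4.92 TPM and Jak2 4.77 TPM. The ranges of neighbours in this order overlapped between single mice for each adjacent pair except Ghr and Igfals, where the lowest Ghr value was 162 TPM and the highest Igfals value 40.4 TPM. All 10 genes passed the minimum of 1 TPM on average and were tested with limma on log2(TPM + 1), with p-values adjusted over all 11766 genes. The pseudocount of 1 makes fold changes smaller for genes at low TPM, such as Stat5a, Cish and Jak2.

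**Figure D1:**
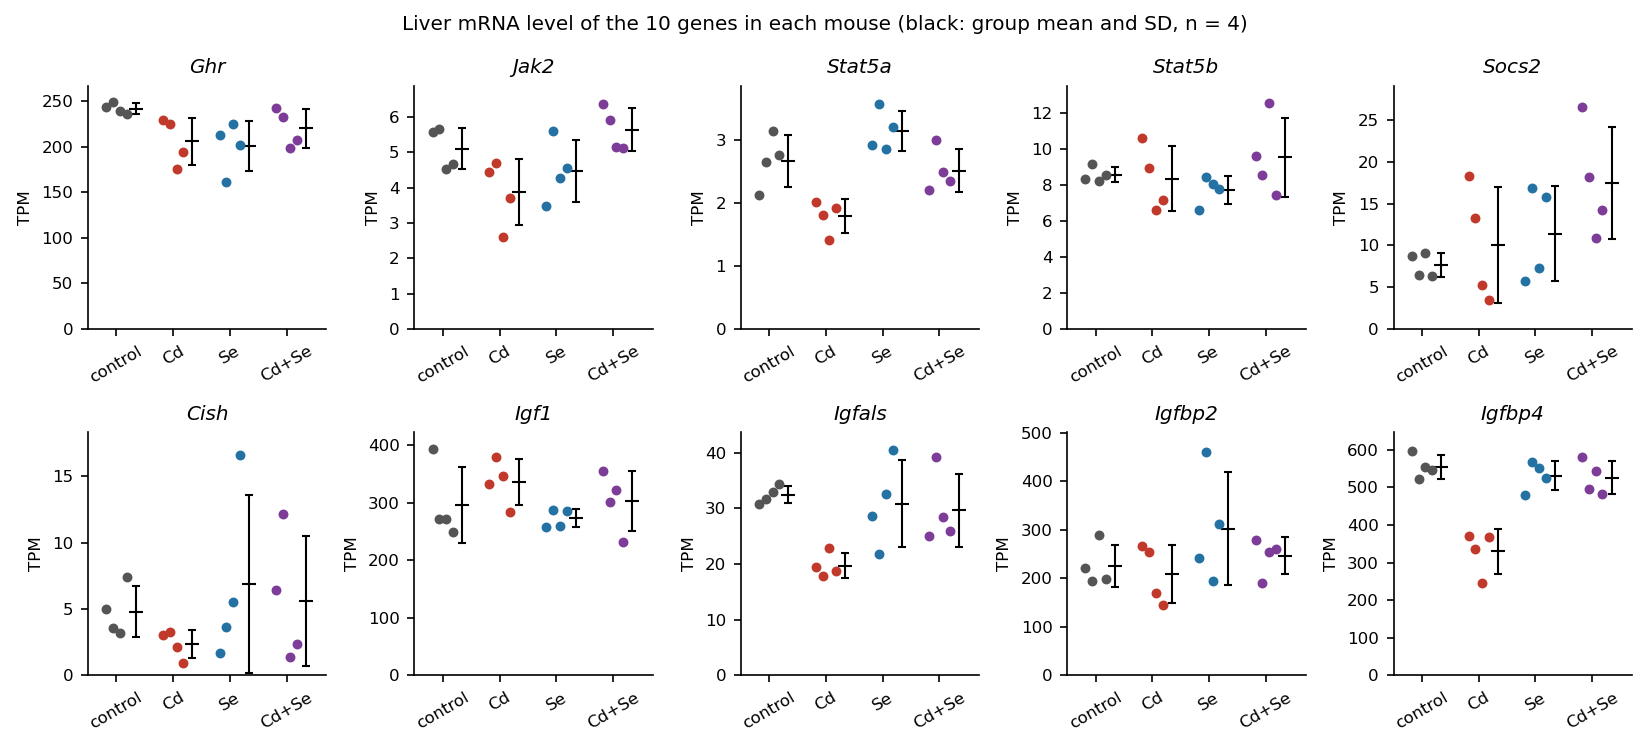
Level of each of the 10 genes in TPM (y axis, from 0) in each mouse (coloured points) by group (x axis), with the group mean and SD in black (n = 4). Igfbp4 and Igfals were lower in each Cd mouse than in each control mouse, Ghr was in a narrow band in control mice, and Socs2 and Cish were widely spread within groups.

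In Cd against control, 3 of the 10 genes differed, all of them lower in Cd mice: Igfbp4, Igfals and Stat5a. Over all genes tested 30.8% differed and 24.9% fell, so that count is near the background. The median log2 fold change of the 10 genes was -0.29, beside -0.17 for all genes, and 8 of the 10 had a negative value. The Cd and control groups did not overlap in 4 of the 10 genes (Igfbp4, Igfals, Stat5a and Ghr), beside 34.2% of all genes in either direction. Igf1 itself was not called.

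Igfbp4 encodes a binding protein that holds IGFs back from their receptor. Its levels in the 4 control mice were 597, 521, 553 and 545 TPM, and those in the 4 Cd mice were 370, 337, 245 and 368 TPM. Each Cd mouse lay below each control mouse, with mouse 5 the lowest. The mean fell by 40.5%, from 554 ± 31.8 TPM (SD, n = 4) to 330 ± 58.7 TPM, with a log2 fold change of -0.76 (SE, the standard error, 0.13, limma adjusted p = 0.000667). This call was kept in all 25 alternatives tried, with log2 fold changes between -0.83 and -0.55.

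Igfals encodes the acid-labile subunit, which liver cells secrete to stabilise the circulating IGF complex. The control mice had 30.8, 31.7, 33.0 and 34.3 TPM and the Cd mice 19.5, 17.9, 22.9 and 18.8 TPM. The groups were separated by a gap wider than the range of either. Igfals fell by 39.2% on average, from 32.5 ± 1.55 TPM (SD, n = 4) to 19.7 ± 2.18 TPM, with a log2 fold change of -0.69 (SE 0.17, limma adjusted p = 0.0058). The call was lost after quantile normalization (-0.54, limma adjusted p = 0.0568) and after median centring (-0.47, limma adjusted p = 0.0826).

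The upstream genes were measured at lower levels. Stat5a was 2.13, 2.64, 3.13 and 2.76 TPM in the controls and 2.02, 1.81, 1.41 and 1.92 TPM in the Cd group. The highest Cd mouse lay just under the lowest control mouse. Stat5a fell by 32.8% on average, with a log2 fold change of -0.39 (SE 0.12, limma adjusted p = 0.0237), and the call was lost in 6 of 24 alternatives, among them both scalings of the libraries and leaving out control mouse 28, 29 or 30 or Cd mouse 5. Stat5b, the STAT5 form with the higher level in liver, was 8.59 ± 0.43 TPM (SD, n = 4) in the controls and 8.35 ± 1.81 TPM in the Cd group, and its log2 fold change was -0.05 (limma adjusted p = 0.811, 95% interval -0.37 to 0.27). Its sign turned after quantile normalization (0.15) and median centring (0.17).

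Ghr, the receptor, was 244, 250, 239 and 236 TPM in the controls and 229, 225, 175 and 194 TPM in the Cd group. The groups did not overlap, but the difference did not pass the threshold (log2 fold change -0.24, SE 0.12, limma adjusted p = 0.138), and it was -0.02 after median centring. Jak2 ranged from 4.53 to 5.65 TPM in control mice and from 2.61 to 4.70 TPM in the Cd group, with a log2 fold change of -0.34 (SE 0.15, limma adjusted p = 0.0941). Cd mouse 5 was the lowest of all 16 mice for Jak2, as it was for Stat5a and Igfbp4.

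Igf1 was 393, 271, 271 and 248 TPM in the controls and 333, 379, 346 and 284 TPM in the Cd group. Control mouse 27 stood above every Cd mouse, while the other 3 control mice lay below all of them. Its log2 fold change was 0.20 (SE 0.15, limma adjusted p = 0.346), with a 95% interval of -0.13 to 0.52, and over the alternatives it ranged from 0.12 to 0.42. Igfbp2, the binding protein that rises in liver when insulin or nutrient supply is low, was 226 ± 43.7 TPM (SD, n = 4) in the controls and 209 ± 59.9 TPM in the Cd group, with the groups overlapping (log2 fold change -0.14, limma adjusted p = 0.697). Its sign turned after median centring (0.08).

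The feedback genes varied too much between mice for a call. Socs2 was 8.75, 6.48, 9.11 and 6.39 TPM in the controls and 18.3, 13.3, 5.28 and 3.42 TPM in the Cd group, so that a pair of Cd mice lay above all control mice and the other pair below them. Its log2 fold change was 0.12 (SE 0.42, limma adjusted p = 0.850). Cish was 5.03, 3.56, 3.21 and 7.43 TPM in the controls and 3.07, 3.31, 2.17 and 0.96 TPM in the Cd group. The mean was 4.81 ± 1.92 TPM (SD, n = 4) against 2.38 ± 1.06 TPM, and the log2 fold change of -0.79 (SE 0.54) had a 95% interval of -1.93 to 0.35 (limma adjusted p = 0.278).

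**Figure D2:**
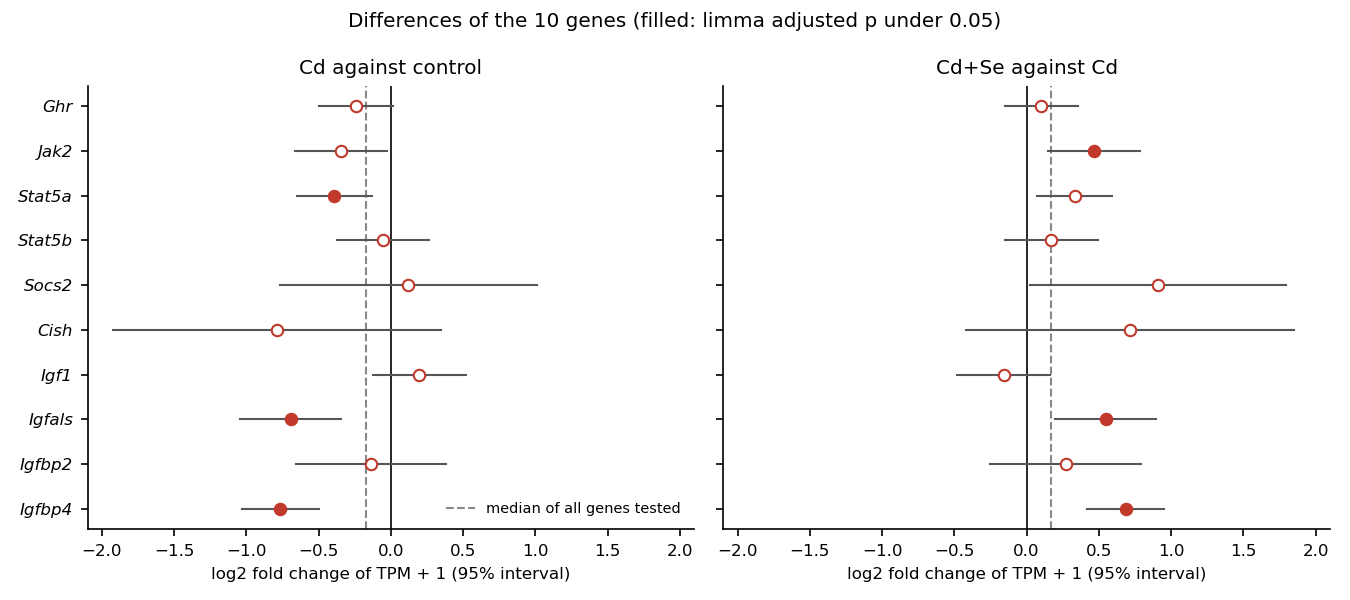
Log2 fold change of TPM + 1 (x axis) of each of the 10 genes (y axis) in Cd against control (left) and in Cd+Se against Cd (right), with 95% intervals from limma as lines. Filled points passed a limma adjusted p of 0.05, and the dashed line marks the median of all genes tested (-0.17 and 0.17). The filled points were Igfbp4, Igfals and Stat5a on the left and Igfbp4, Igfals and Jak2 on the right, and both panels share the Cd mice.

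In Cd+Se against Cd, which asks how SeMet feeding altered the liver of Cd-injected mice, 3 of the 10 genes differed and all were higher in Cd+Se mice: Igfbp4, Igfals and Jak2. The background was 15.9% of all genes, 13.6% higher, a share that changes with the count given above. The median log2 fold change of the 10 genes was 0.40, beside 0.17 for all genes, and Igf1 was the only 1 of the 10 with a negative value. The groups did not overlap in 4 of the 10 genes (Igfbp4, Igfals, Jak2 and Stat5a), beside 19.2% of all genes. The same 4 Cd mice entered this comparison and the one with control mice, which by itself favours opposite signs.

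Igfbp4 was 581, 496, 543 and 483 TPM in the Cd+Se mice, every one above the highest Cd mouse at 370 TPM. Its mean was 526 ± 45.0 TPM (SD, n = 4), with a log2 fold change against Cd of 0.69 (SE 0.13, limma adjusted p = 0.00594). The call was kept in 24 of 25 alternatives and lost when only these 2 groups were in the model (limma adjusted p = 0.0615). Igfals was 25.0, 39.2, 28.5 and 25.9 TPM in Cd+Se mice, with mouse 14 far above the others and all of them above the Cd mice. Its log2 fold change was 0.55 (SE 0.17, limma adjusted p = 0.0357). This call was lost in 10 of 25 alternatives, which included each scaling of the libraries and leaving out any 1 of the 4 Cd mice or Cd+Se mouse 14 or 15.

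Jak2 was 6.36, 5.92, 5.16 and 5.13 TPM in Cd+Se mice, all above the Cd mice, with a log2 fold change of 0.47 (SE 0.15, limma adjusted p = 0.0467). It lost its call in 16 of 24 alternatives, with limma adjusted p between 0.0358 and 0.141 over all of them. Stat5a ranged from 2.21 to 2.99 TPM in Cd+Se mice, also above each Cd mouse, but did not pass the threshold (log2 fold change 0.33, SE 0.12, limma adjusted p = 0.0723). Stat5b ranged from 7.45 to 12.6 TPM and overlapped with Cd mice (0.17, limma adjusted p = 0.453), as did Ghr, which ranged from 198 to 243 TPM (0.10, limma adjusted p = 0.585).

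Socs2 was 26.5, 18.2, 10.9 and 14.2 TPM in Cd+Se mice. All 4 exceeded the highest control mouse at 9.11 TPM, whereas they overlapped with the Cd mice. Its log2 fold change was 0.91 against Cd (SE 0.42, limma adjusted p = 0.140) and 1.03 against control (SE 0.42, limma adjusted p = 0.365). Without Cd mouse 1, which had the most Socs2 of the Cd group, the difference from Cd passed (1.26, limma adjusted p = 0.0438). Cish was 6.44, 12.2, 1.40 and 2.38 TPM in Cd+Se mice, spanning values on both sides of the Cd group (log2 fold change 0.72, SE 0.54, limma adjusted p = 0.369).

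Igf1 was 354, 301, 323 and 232 TPM in Cd+Se mice, within or below the Cd range, with a log2 fold change of -0.16 (SE 0.15, limma adjusted p = 0.492). Igfbp2 was 246 ± 38.3 TPM (SD, n = 4), with a log2 fold change of 0.27 (limma adjusted p = 0.468).

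None of the 10 genes passed the threshold in the other comparisons by limma. In Cd+Se against control 0.484% of all genes were called and 0 of the 10. Socs2 alone of the 10 had an unadjusted p under 0.05 (limma, 0.0251), beside 1286 of the 11766 genes tested. It was also the only 1 of the 10 without overlap of the groups (8.86% of all genes), so both counts are near the background. In Se against control 0.0% of all genes were called. At an unadjusted p under 0.05 there were 454 of 11766 genes, fewer than the share of 0.05 that chance alone gives. Ghr was among those 454, at 214, 162, 226 and 202 TPM in Se mice, each below each control mouse (log2 fold change -0.28, SE 0.12, unadjusted p = 0.0334, limma adjusted p = 1). The Se and control groups did not overlap in 3.09% of all genes. Se mouse 40 held the lowest Ghr of the 16 mice and the highest Igfbp2, at 461 TPM against 195 to 312 TPM in the other Se mice. In Cd+Se against Se 0.714% of all genes were called and 0 of the 10, with no unadjusted p under 0.05 among them.

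The interaction, which compares the effect of Cd in Se-fed mice with that in mice not fed SeMet, was called for 1.04% of all genes and 0 of the 10. Those 122 genes became 731 after median centring, 524 after quantile normalization and 26 without a filter. Leaving out 1 mouse gave 83 without Cd mouse 5, 143 without Cd+Se mouse 13 and 123 without Cd+Se mouse 15, and 2 (without control mouse 29) to 348 (without Se mouse 40) for the other 13 mice. Igfbp4 came nearest, with a difference between the log2 fold changes of 0.75 (SE 0.18, limma adjusted p = 0.0531). It passed in 7 of 24 alternatives, over which its adjusted p ranged from 0.00806 to 0.112. Igfbp4 was 479 to 568 TPM in Se mice and 483 to 581 TPM in Cd+Se mice, so that the groups overlapped (log2 fold change -0.01, 95% interval -0.28 to 0.25). Jak2 (0.63, limma adjusted p = 0.121), Igfals (0.65, limma adjusted p = 0.135) and Ghr (0.38, limma adjusted p = 0.209) had unadjusted p under 0.05 for the interaction and did not pass. Over all genes, 2505 of 11766 had an unadjusted p under 0.05 for the interaction.

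Ratios of 2 mRNAs within a liver do not depend on a constant factor applied to the TPM of a library. They were taken from TPM as deposited and were not recomputed after quantile normalization or median centring. The ratio of Igf1 to Igfbp4 was 0.66, 0.52, 0.49 and 0.46 in control mice and 0.90, 1.12, 1.42 and 0.77 in Cd mice, with no overlap. It was 0.51 ± 0.033 (SD, n = 4) in Se mice and 0.57 ± 0.062 in Cd+Se mice, all of them below the lowest Cd mouse. The ratio of Igf1 to Igfals behaved alike, at 9.20 ± 2.46 in control mice, 17.2 ± 2.87 in Cd mice, 9.30 ± 2.67 in Se mice and 10.5 ± 2.85 in Cd+Se mice, and each Cd mouse (15.1 or more) lay above each other mouse (14.2 or less). Igf1 to Igfbp2 overlapped between all groups, at 1.34 ± 0.35 in control and 1.68 ± 0.37 in Cd mice. Stat5b exceeded Stat5a in every liver, 3.28 ± 0.54 times in control, 4.66 ± 0.65 times in Cd, 2.47 ± 0.24 times in Se and 3.86 ± 1.02 times in Cd+Se mice, and the Se group did not overlap with the Cd or the Cd+Se group. Such a ratio shows unequal change of the genes and not which of them changed. The ratios were picked with the values known and were given no test.

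**Figure D3:**
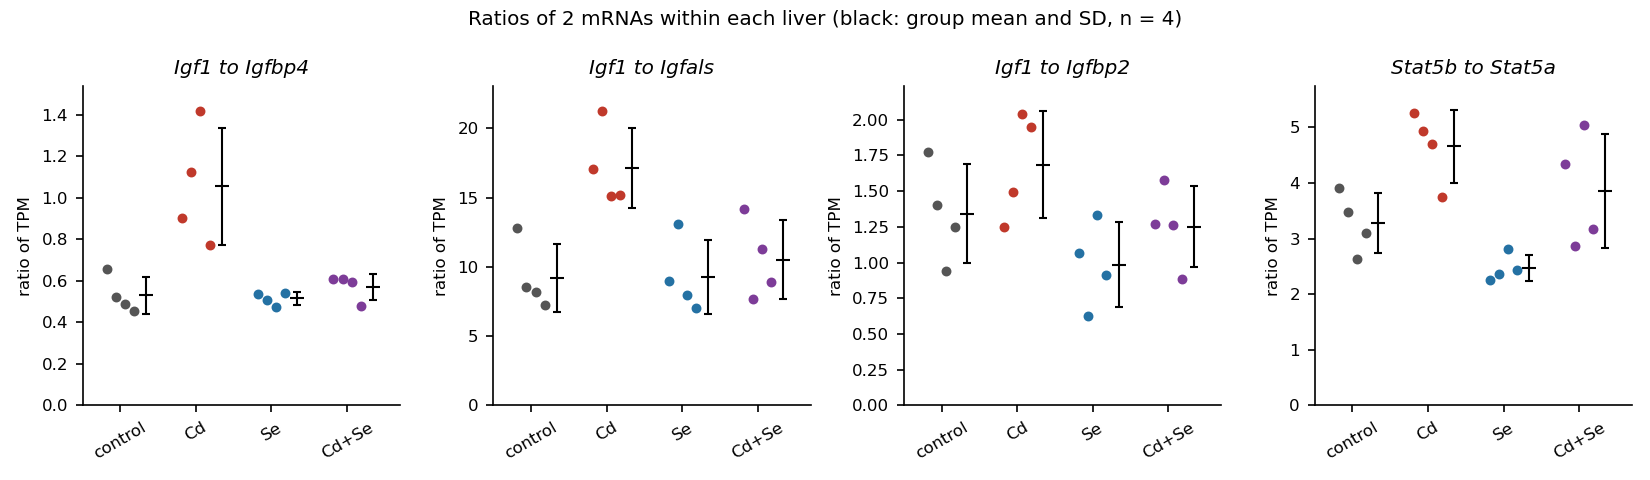
Ratio of the TPM of 2 genes within each mouse (points, y axis from 0) by group (x axis), with the group mean and SD in black (n = 4). Each Cd mouse was above each mouse of the other groups for Igf1 to Igfbp4 and for Igf1 to Igfals, while Igf1 to Igfbp2 overlapped between groups.

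Cish had the widest spread of the 10 genes in the control, Se and Cd+Se groups, with a coefficient of variation from 39.9% in control to 97.1% in Se mice, and Socs2 had it in the Cd group (69.1%), while Ghr varied by 2.55% to 13.8%. Its level was therefore set beside the other 9 genes and beside Onecut1 (a hepatocyte transcription factor that GH induces) and Bcl6 (a repressor that GH lowers and that competes with STAT5), a choice made after the values were seen. On the log2(TPM + 1) scale over the 16 mice, Onecut1 rose with Cish (Pearson's r = 0.81, permutation p = 0.00013, adjusted over the 11 relations 0.00143, and Spearman's rho = 0.76, permutation p = 0.00103, adjusted 0.0102). Bcl6 moved the opposite way (r = -0.78, permutation p = 0.00032, adjusted 0.00176, and rho = -0.73, permutation p = 0.00186, adjusted 0.0102). Within the 4 groups the sign was the same in 4 of 4 for both genes, and with group means removed r was 0.84 for Onecut1 and -0.78 for Bcl6. Without Se mouse 44 and Cd+Se mouse 14, the mice farthest from the median of Cish, r pooled over the groups was 0.67 and -0.65. The tests were two-sided with 100000 random permutations over all 16 mice, without regard to group. Their p-values therefore also reflect differences between the groups. The adjustment over the 11 relations does not cover the choice of these genes.

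Se mouse 44 and Cd+Se mouse 14 had 16.6 and 12.2 TPM of Cish, 34.9 and 46.6 TPM of Onecut1 and 3.03 and 4.41 TPM of Bcl6. At the other end, Cd mouse 6 had 0.96 TPM of Cish, 1.70 TPM of Onecut1 and 25.2 TPM of Bcl6. Of the other 9 genes, Igfals alone passed the adjustment with Cish (r = 0.66, permutation p = 0.00566, adjusted 0.0208, and rho = 0.61, permutation p = 0.0134, adjusted 0.0493), but its sign turned within Cd mice and r was 0.42 without those 2 mice. Socs2, the other feedback gene, gave r = 0.49 (permutation p = 0.0525, adjusted 0.145, and rho = 0.44, permutation p = 0.0847, adjusted 0.119). Igf1 gave r = 0.02 (permutation p = 0.956, adjusted 0.956, and rho = 0.06, permutation p = 0.814, adjusted 0.814).

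**Figure D4:**
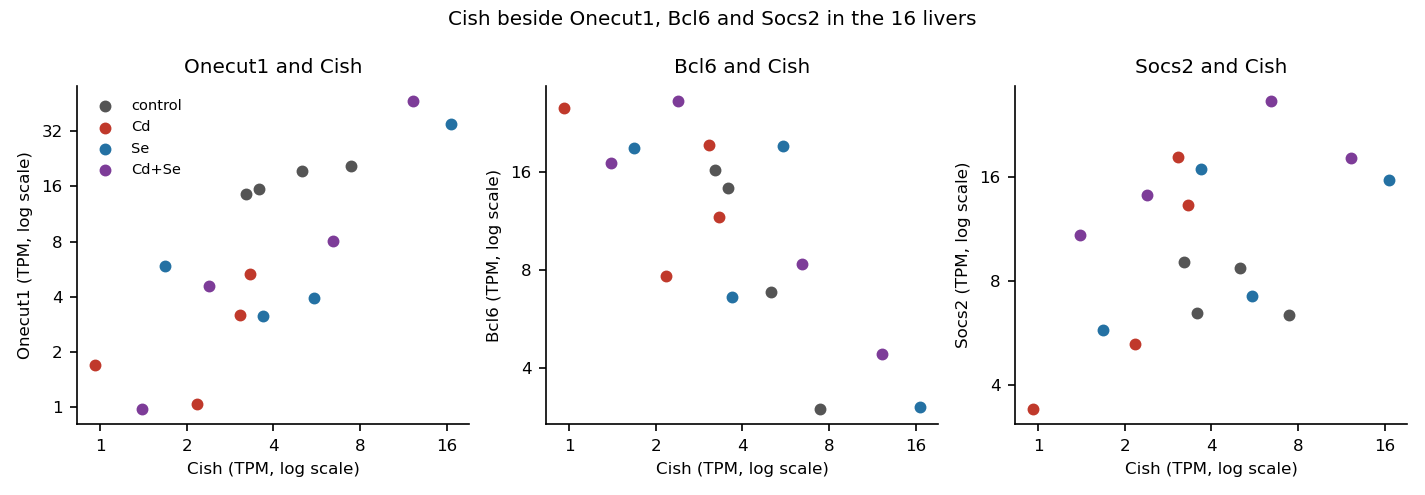
TPM of Cish (x axis, log scale) against TPM of Onecut1, Bcl6 and Socs2 (y axes, log scale) in the 16 mice, coloured by group. The mice with the most Cish (16.6 and 12.2 TPM) had the most Onecut1 (34.9 and 46.6 TPM) and little Bcl6 (3.03 and 4.41 TPM), while Socs2 was more scattered.

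The genes whose profile over the 16 livers was most like that of Igf1, by the root mean square difference of centred log2(TPM + 1), were Cilk1, Agxt2, Cyp2j6, Tmem134 and Prdx5, with differences of 0.125 to 0.141 where the spread of Igf1 itself was 0.217. For Socs2 they were Snhg1, Dsg1c, Gm14399, Slc30a1 (a zinc exporter) and Vnn3, with 0.408 to 0.474 against 0.707 for Socs2 itself. The profiles most like a gene of small spread are partly those that vary little.

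The rest of the IGF system was mostly low in liver: 7 of 12 listed genes were under 1 TPM on average, among them the ligand Igf2 (at most 0.62 TPM in any mouse) and the receptor Igf1r (at most 0.61 TPM). Of the 5 tested, 2 fell in Cd against control, both of them receptors, the insulin receptor Insr (log2 fold change -0.60, limma adjusted p = 0.0104) and the IGF-2 scavenger Igf2r (-0.46, limma adjusted p = 0.0156), beside 30.8% of all genes. Insr was 20.8 to 26.0 TPM in control mice, 11.6 to 18.9 TPM in the Cd group and 19.95 to 26.3 TPM in Cd+Se mice, and exceeded the Cd level in Cd+Se mice (0.63, limma adjusted p = 0.0185), a call lost in 3 of 25 alternatives. Igf2r was not called there (0.38, limma adjusted p = 0.0578). Insr was called in Cd against control in all 25 alternatives, while Igf2r lost its call after median centring.

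Igfbp3, the binding protein of the circulating complex with ALS, was 4.62, 5.10, 3.89 and 4.10 TPM in control mice, 9.46, 7.40, 3.68 and 7.30 TPM in the Cd group and 11.3, 10.4, 4.17 and 11.7 TPM in Cd+Se mice. It was high in 3 of 4 mice of both Cd-injected groups. None of its comparisons passed (0.50 for Cd against control, limma adjusted p = 0.181, and 1.07 for Cd+Se against Se, limma adjusted p = 0.105). Cd against control passed after quantile normalization (limma adjusted p = 0.0438) and after median centring, and Cd+Se against Se passed without Cd+Se mouse 15 (1.38, limma adjusted p = 0.00602). The ratio of Igfals to Igfbp3 was 7.43 ± 1.17 (SD, n = 4) in control, 3.31 ± 1.94 in Cd, 8.89 ± 4.21 in Se and 3.76 ± 2.18 in Cd+Se mice, with the Cd group wholly below the control group (6.21 at most in Cd and 6.22 at least in control mice). Igfbp1, a binding protein that insulin represses, was 19.0 to 35.0 TPM in the controls and 39.1 to 105 TPM in the Cd group, without overlap, but ran from 11.7 to 763 TPM in Cd+Se mice and was not called (1.17 for Cd against control, SE 0.90, limma adjusted p = 0.341). It passed with only the control and Cd groups in the model (limma adjusted p = 0.0129).

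Of 16 tested genes of GH and prolactin receptor signalling outside the 10, 6 fell in Cd against control and 0 rose, beside 24.9% of all genes lower, so that nothing particular to the list is read from the count. They were the kinase Jak1 (-0.75), the insulin-signal subunit Pik3r1 (-1.27), the adaptor Sh2b1 (-0.33), the glucocorticoid receptor Nr3c1 (-0.71) and the hepatocyte factors Hnf4a (-0.81) and Onecut1 (-2.40), with limma adjusted p from 0.000876 for Pik3r1 to 0.0496 for Sh2b1. The Sh2b1 call was lost in 18 of 25 alternatives, among them both scalings and leaving out any 1 of the control mice. Onecut1 was 14.6 to 20.6 TPM in the controls and 1.04 to 5.32 TPM in the Cd group, and its call was lost in 7 of 25 alternatives, again with any 1 of the control mice left out. Jak1 was 25.4 to 28.2 TPM in control mice, 11.1 to 18.7 TPM in the Cd group and 24.1 to 28.99 TPM in Cd+Se mice. In Cd+Se against Cd, Jak1 (0.70), Pik3r1 (0.80), Hnf4a (0.58) and Nr3c1 (0.53) were higher, with limma adjusted p of 0.00686, 0.0245, 0.0239 and 0.0232, beside 13.6% of all genes higher. All 4 calls were lost with only the groups compared, and of 25 alternatives 1 ended that of Jak1, 5 that of Pik3r1, 5 that of Hnf4a and 4 that of Nr3c1, and Pik3r1, Hnf4a and Nr3c1 each lost it without Cd mouse 5 and without Cd+Se mouse 14. The prolactin receptor Prlr was not called (0.12, limma adjusted p = 0.780), nor was Bcl6 (0.70, limma adjusted p = 0.394).

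Among 14 tested negative regulators of JAK-STAT signalling, 4 fell in Cd against control and 1 rose, a share near the 30.8% of all genes called. The phosphatases Ptpn11 (-0.78, limma adjusted p = 0.00209) and Ptpn1 (-0.75, limma adjusted p = 0.00102), the SUMO ligase Pias1 (-0.67, limma adjusted p = 0.00333) and Socs5 (-0.41, limma adjusted p = 0.0343) fell. Grb14, an adaptor that restrains the insulin receptor, rose from 23.3 to 28.3 TPM among the controls to 29.3 to 42.4 TPM among the Cd mice (0.44, limma adjusted p = 0.0224), a call lost in 4 of 25 alternatives. Ptpn1 was 5.20 to 6.14 TPM in control, 2.36 to 3.43 TPM in Cd and 4.83 to 6.18 TPM in Cd+Se mice, and together with Ptpn11, Pias1 and the ubiquitin ligase Cbl it rose from Cd to Cd+Se mice (0.74, limma adjusted p = 0.00577 for Ptpn1). With only the groups compared all 4 lost that call, and Pias1 lost it in 9 of 24 alternatives. Socs3, which acute inflammatory signals induce, was not called (-0.03, limma adjusted p = 0.948), and its sign turned with both scalings (0.17 and 0.19) and with protein-coding genes only.

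Of 16 male-biased liver genes that depend on GH pulses, 2 fell in Cd against control, Ugt2b38 (79.4 to 130 TPM in control and 18.0 to 61.9 TPM in the Cd group, -1.38, limma adjusted p = 0.00418) and the complement gene C6 (-0.84, limma adjusted p = 0.00541), and both were higher in Cd+Se than in Cd (1.45 and 0.84, limma adjusted p = 0.0102 and 0.0147). Over all genes tested 30.8% were called and 24.9% fell, so 2 of 16 is below that share. Of those not called, Elovl3 (12.8 to 22.6 TPM in control and 23.4 to 59.5 TPM in Cd mice) was higher in Cd without overlap. Serpina12 (6.79 to 11.6 TPM and 13.2 to 25.3 TPM) was as well. Cyp2d9, Cyp4a12b and Mup20 were lower without overlap, beside 34.2% of all genes without overlap in either direction. The list thus moved both ways. Of 18 female-biased genes, 16 were under 1 TPM on average and Cyp2c40 was called, lower in Cd (-0.94, limma adjusted p = 0.0038). Among 11 fasting and insulin responsive genes 3 fell, Srebf1 (-1.40), G6pc (-1.34) and Cpt1a (-0.79), with limma adjusted p of 0.0342, 0.0237 and 0.0021. That count is near the background of 30.8% called and 24.9% lower. Pck1 was not called but was higher in Cd without overlap (549 to 861 TPM in control and 1071 to 1350 TPM in Cd mice). Ppargc1a was as well (1.68 to 1.97 TPM and 2.06 to 4.85 TPM), beside the same 34.2% of all genes without overlap. Srebf1 lost its call in 9 of 25 alternatives (any 1 of the control mice left out among them), G6pc in 6 of 25 and Socs5, named above, in 7 of 24, each of them after median centring as well. Of the 3 that fell, Cpt1a alone was above the Cd level in Cd+Se mice (0.77, limma adjusted p = 0.00884). In Se mice, which had no Cd, G6pc was 78.5 to 482 TPM and overlapped with the Cd mice (147 to 220 TPM). Srebf1 overlapped as well (38.6 to 127 TPM in Se and 43.9 to 90.1 TPM in Cd mice). Neither was called in Se against control.

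Time of day affects GH output and clock genes, so 12 clock genes were looked at, of which 10 were tested. Nr1d1, a repressor of the clock, rose from 7.32 to 15.7 TPM among the controls to 24.7 to 56.2 TPM among the Cd mice (1.63, limma adjusted p = 0.00145) and was 6.70 to 16.5 TPM in Cd+Se mice (-1.63 against Cd, limma adjusted p = 0.00635). Cry1 (-0.48, limma adjusted p = 0.0395) and Per2 (-0.41, limma adjusted p = 0.0471) fell in Cd against control, but lost their calls in 9 of 24 and 15 of 25 alternatives. The share of clock genes called is near the 30.8% of all genes tested. Dbp was not called but was higher in Cd without overlap (61.6 to 70.5 TPM in control and 87.5 to 134 TPM in Cd mice). Clock, not called either, was lower without overlap (3.62 to 3.89 TPM and 1.92 to 3.18 TPM), beside 34.2% of all genes without overlap. The time of tissue collection was not given in the sources used here, and its part in the values was not tested.

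**Figure D5:**
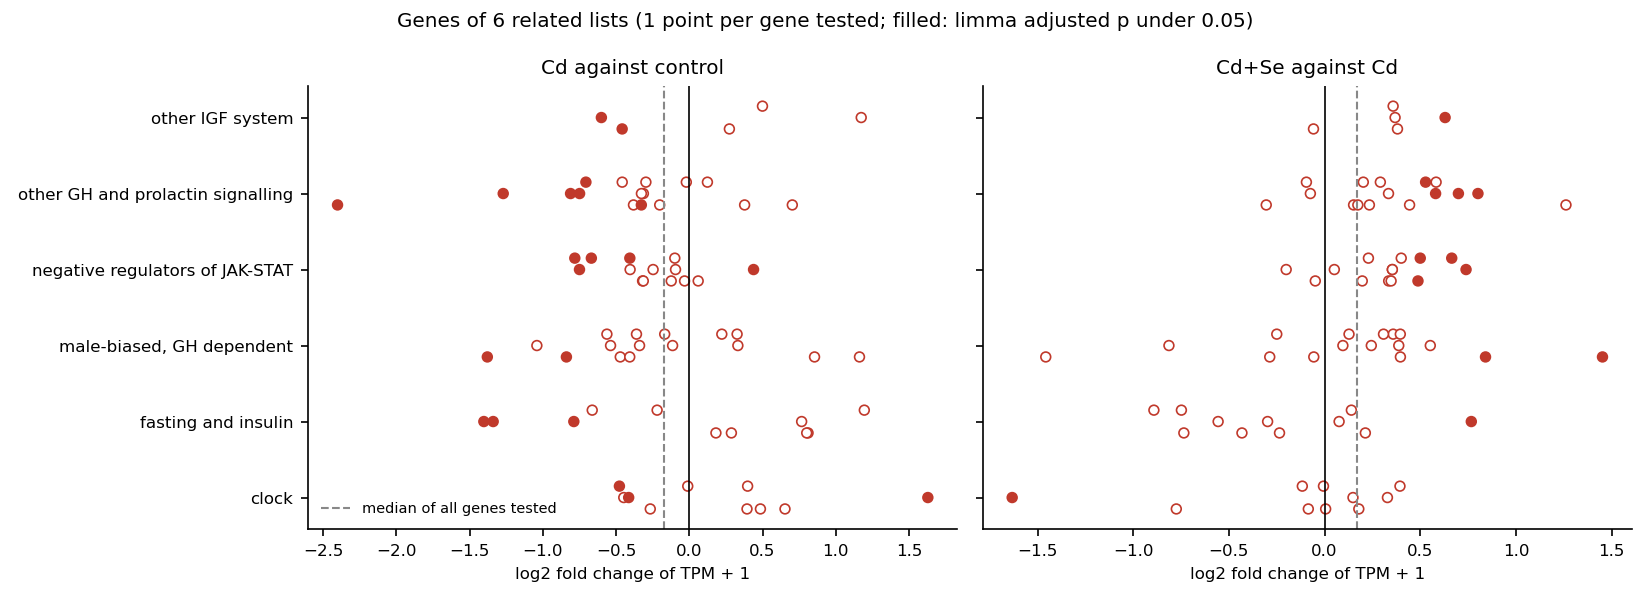
Log2 fold change of TPM + 1 (x axis) of each tested gene of 6 related lists (y axis, 1 point per gene, spread vertically for clarity) in Cd against control (left) and Cd+Se against Cd (right). Filled points passed a limma adjusted p of 0.05, and the dashed line is the median of all genes tested. On the left the leftmost filled point is Onecut1 at -2.40 and the rightmost is Nr1d1 at 1.63.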

How the data were processed

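Liver TPM of 16 mice were deposited by the authors as 1 table. The submitters' processing notes name fastp, HISAT2 and StringTie, and GRCh38, a human build, although the gene identifiers are mouse Ensembl ones. Sample titles name a replicate 1 and 2 library, but the table holds 1 column per mouse, which was the replicate. Groups came from the treatment labels, and columns were matched to mice by title. The 11766 genes averaging 1 TPM or more were compared on log2(TPM + 1), pseudocount 1, with limma 3.58.1 in R 4.3.3 (1 model with 4 group means, eBayes with trend, Benjamini-Hochberg adjustment, threshold 0.05), after the steps were tested on simulated data. The exact permutation test planned for members under 1 TPM was not needed. The members and the lists were chosen with earlier results of these data known. Some genes of these lists are not reported here, and the counts leave them out. Named genes of other lists were those called in Cd against control or Cd+Se against Cd, up to the 6 with the largest change, and Igfbp1, Igfbp3, Igf2, Prlr, Socs3 and Bcl6. Igf1r, the single hepatocyte markers and the genes named in the closing observations were added after their values were seen. So were the male-biased, the fasting and insulin responsive and the clock genes that were not called. The alternatives were a pseudocount of 0.1, no filter, an average of 5 TPM or more, quantile normalization, median centring, only the groups compared, no trend, and each mouse left out. Leaving out Se mouse 40 and Cd+Se mouse 15 together, and protein-coding genes only, were added after the data were seen. The 8 hepatocyte markers looked up by symbol gave 7 matches. Positions are from GENCODE M21, sequence from RefSeq.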

Additional observations from a re-analysis of the deposited data

Results flagged for a closer look

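Igf1 in control mouse 27 was 393 TPM where the other 3 control mice had 248 to 271 TPM, a gap of 0.843 of the group's range. It was the only such case among 40 groups of the 10 genes, where chance alone gives about 2 (1 in 20). Over 156 groups of the 10 genes and the genes of other lists named by the rule above there were 9, where chance gives about 7.8. Genes named outside that rule, such as Fgf21, were not screened. The gap was 0.836 for Insr in Cd+Se mouse 16 (19.95 TPM, others 25.3 to 26.3), 0.834 for Igfbp3 in Cd+Se mouse 15 (4.17 TPM, others 10.4 to 11.7), 0.913 for Onecut1 in Se mouse 44 (34.9 TPM, others 3.13 to 5.91) and 0.844 for Onecut1 in Cd+Se mouse 14 (46.6 TPM, others 0.98 to 8.09). It was 0.920 for Pik3r1 in Cd mouse 5 (6.44 TPM, others 8.74 to 8.94), 0.891 for Jak1 in Se mouse 40 (28.4 TPM, others 24.0 to 24.5), 0.979 for Socs5 in Cd+Se mouse 15 (1.84 TPM, others 2.31 to 2.32) and 0.901 for Socs3 in control mouse 30 (8.65 TPM, others 2.78 to 3.36).

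Ptpn1, the phosphatase that acts on JAK2 and the insulin receptor, was the only screened gene whose response to Cd differed between Se-fed and other mice by a test of the difference itself (interaction 0.825 on the log2 scale, limma adjusted p = 0.0487). It was lower in 4 of 4 Cd mice than in any control mouse, while Se and Cd+Se mice overlapped. The test of the difference was lost in 14 of 23 alternatives, with limma adjusted p between 0.0147 and 0.106, among them leaving out any 1 of the control mice.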

How the results depend on the processing

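TPM keep no depth, and the calls for the 10 genes depended on the scaling. In the main model the p-values rest on the spread between mice shared over all 4 groups of 4 mice. A wide spread in 1 group therefore also enters comparisons without that group. In Cd against control the count of 3 became 1 after quantile normalization and 1 after median centring, Igfbp4 in each case. In Cd+Se against Cd the count of 3 became 1 without a filter, 1 after quantile normalization, 1 after median centring and 0 with only the groups compared, and 1 to 3 with each mouse left out. For the interaction the count of 0 became 1 with a mean of at least 5 TPM, 1 after quantile normalization, 1 after median centring and 1 with protein-coding genes only, and 0 to 1 with each mouse left out, the 1 being Igfbp4 each time. Counts in the other comparisons stayed at 0. Over all genes, the 57 calls of Cd+Se against control ranged from 18 to 132 and the 84 of Cd+Se against Se from 11 to 208 over the alternatives, and the 0 of Se against control from 0 to 2.

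Only values that had not been called changed sign. After median centring the log2 fold change was 0.081 for Igfbp2 and 0.17 for Stat5b in Cd against control, -0.093 for Ghr and -0.023 for Stat5b in Cd+Se against Cd, 0.021 for Igfbp4 in Cd+Se against Se, -0.031 for Stat5a in the interaction and 0.19 for Socs3 in Cd against control. After quantile normalization it was 0.15 for Stat5b and 0.17 for Socs3 in Cd against control, -0.018 for Stat5b in Cd+Se against Cd and -0.027 for Igf1 in Cd+Se against control. With protein-coding genes only it was 0.0024 for Socs3 in Cd against control. Without Se mouse 40 and Cd+Se mouse 15 it was 0.31 for Cish and -0.012 for Stat5b in Cd+Se against control, 0.047 for Igfals in Se against control, 0.0022 for Igfbp4 and 0.033 for Cish in Cd+Se against Se and 0.11 for Igfbp2 in the interaction.

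Leaving out 1 mouse at a time, the range was -0.27 to 0.018 for Igfbp2, -0.23 to 0.48 for Socs2, -0.17 to 0.036 for Stat5b, -0.024 to 0.25 for Prlr and -0.17 to 0.28 for Socs3 in Cd against control, -0.044 to 0.18 for Igf1, -0.51 to 0.31 for Cish and -0.012 to 0.22 for Stat5b in Cd+Se against control, and -0.17 to 0.048 for Igf1, -0.24 to 0.047 for Igfals and -0.36 to 0.54 for Cish in Se against control. It was -0.19 to 0.091 for Igfals, -0.063 to 0.025 for Igfbp4 and -0.65 to 0.29 for Cish in Cd+Se against Se, and -0.21 to 0.058 for Igf1 and -0.28 to 0.13 for Igfbp2 in the interaction. The causes were not tested. No paired analysis was possible because the groups share no mouse number.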

Other observations

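Se mouse 40 stood apart in its hepatocyte markers and in genes that depend on the pattern of GH secretion. Its summed TPM of the hepatocyte markers was 113825, where every other mouse had 40674 to 84320. Alb was the highest of the 16 mice there at 86650 TPM, and Cyp2e1 the lowest at 2228 TPM. Of 16 male-biased genes, Se mouse 40 had the lowest level of all 16 mice in 8. It had the lowest of its group in 13, which left out Ugt2b38 (153 TPM), Susd4 (8.57 TPM) and Serpina12 (20.7 TPM). Hsd3b5 was 6.78 TPM there and 72.8 to 137 TPM in the other Se mice, Elovl3 1.35 TPM against 8.90 to 15.5 TPM, and Cyp2d9 359 TPM against 740 to 904 TPM. Of 14 female-biased genes detected in at least 1 mouse, it had the highest level of all mice in 4. Cux2, a female-biased factor, was 11.4 TPM in that liver and at most 1.16 TPM in any other. Fgf21, a fasting hormone that lowers hepatic response to GH, was 133 TPM there and at most 19.4 TPM elsewhere. Ghr was the lowest and Igfbp2 the highest of the 16 mice in the same liver, while its Igf1 (287 TPM) was just above the other Se mice (258 to 285 TPM). These values of 1 mouse were singled out after they were seen, and no cause was tested.

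Cd+Se mouse 15 had 763 TPM of Igfbp1 where the other 15 mice had 7.53 to 151 TPM, with 15.2 TPM of Srebf1 and 31.0 TPM of Fasn, the lowest of the 16 mice for both. Of 16 male-biased genes, Cd+Se mouse 15 had the lowest level of all mice in 2, among them Nudt7 at 96.3 TPM, and the lowest of its group in 6. Others of that list, such as Elovl3 (28.2 TPM) and Cyp7b1 (164 TPM), were the highest of its group there. Igfbp4 in this mouse was 543 TPM, within its group. The calls for the 10 genes were 3 in Cd against control and 3 in Cd+Se against Cd with both Se mouse 40 and Cd+Se mouse 15 left out, as with all mice.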
